A study of Mus musculus with 12 samples.

Results

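Interferon stimulated genes are the genes that cells switch on when an interferon binds its receptor. A set of 40 of them, named by symbol and covering the receptor of type I interferons, STAT2 and 3 IRF factors and induced genes, was examined in RNA sequencing of RasV12 brain tumors of the mouse. All 40 symbols were found, each as 1 row of the 54547 genes in the deposited tables, and all 40 passed the filter on low values. GFP+ cells and CD11b+ phagocytes were sorted from tumors of Msi1-CreER;RasV12 mice, and the same 2 populations from the cerebellum of Msi1-CreER;GFP control mice, with 3 libraries in each of the 4 groups. All mice were of a 129;C57BL/6 mixed background and carried Msi1-CreER, an inducible Cre recombinase driven by Msi1, the Musashi gene of neural stem and progenitor cells. RasV12 is an oncogenic form of Ras. The RasV12 label names no GFP gene, and the sources used here give neither ages nor the induction of Cre. Genotype and tissue (tumor or cerebellum) differ together between RasV12 and control groups, so they cannot be told apart. Whether the 3 libraries of a group are separate animals is not stated, so the p-values rest on differences between libraries that may be technical in part.

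Type I interferons bind a receptor made of IFNAR1 and IFNAR2, and receptor-bound kinases then phosphorylate STAT2, which joins IRF9 in a complex that binds interferon-stimulated response elements (ISREs) in the promoters of induced genes. Interferon gamma acts through gamma-activated sites (GAS). In the brain, microglia and other myeloid cells are known for strong interferon responses, and induced proteins sense foreign RNA, block viral entry or replication, or damp the signal again.

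Promoter sequences are shown for the neighbouring Ifitm genes and for Ifi35, whose change differed between the cell types. All 3 Ifitm genes were higher in every RasV12 GFP+ library than in any control GFP+ library, as were 17.2% of all tested genes. Of the 3, only Ifitm3 passed the test given below. RefSeq promoter windows (GRCm38.p6, 250 bases before to 50 bases after each start) were matched for 31 of the 40 genes. They are written 5′ to 3′ on the gene's own strand, with matches to either motif in capitals. The motifs searched on both strands were the ISRE core, which is GAAA, any 2 bases and GAAA again, and the GAS pattern, which is TTC, any 3 bases and GAA.
Ifitm3 (chr7:141010695-141010994, minus strand): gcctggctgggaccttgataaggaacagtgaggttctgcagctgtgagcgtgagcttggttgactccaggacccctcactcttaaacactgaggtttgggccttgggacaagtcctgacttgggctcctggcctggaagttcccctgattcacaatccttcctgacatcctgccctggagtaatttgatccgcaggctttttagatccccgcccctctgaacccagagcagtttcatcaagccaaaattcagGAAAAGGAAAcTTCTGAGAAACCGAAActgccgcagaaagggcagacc
Ifitm2 (chr7:140955912-140956211, minus strand): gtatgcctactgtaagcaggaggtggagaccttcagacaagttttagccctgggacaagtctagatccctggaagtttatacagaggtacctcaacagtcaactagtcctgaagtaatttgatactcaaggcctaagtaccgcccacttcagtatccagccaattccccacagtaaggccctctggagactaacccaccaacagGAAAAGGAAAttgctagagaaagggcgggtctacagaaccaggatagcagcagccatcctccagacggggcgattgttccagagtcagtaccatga
Ifitm1 (chr7:140967826-140968125, plus strand): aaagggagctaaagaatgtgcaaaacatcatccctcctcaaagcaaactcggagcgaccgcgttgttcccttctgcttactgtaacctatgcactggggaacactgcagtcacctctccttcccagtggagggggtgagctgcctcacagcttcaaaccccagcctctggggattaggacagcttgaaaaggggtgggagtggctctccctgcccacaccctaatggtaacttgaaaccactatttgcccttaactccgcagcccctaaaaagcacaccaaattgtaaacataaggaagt
Ifi35 (chr11:101448162-101448461, plus strand): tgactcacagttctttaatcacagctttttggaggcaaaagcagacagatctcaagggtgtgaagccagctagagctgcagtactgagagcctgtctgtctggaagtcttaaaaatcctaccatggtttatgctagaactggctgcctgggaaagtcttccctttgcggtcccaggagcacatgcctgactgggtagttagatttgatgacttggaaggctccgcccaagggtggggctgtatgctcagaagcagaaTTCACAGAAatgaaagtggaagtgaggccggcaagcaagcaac
The Ifitm3 window held 2 ISRE matches, beginning 2 and 19 bases after the start, and a GAS match beginning 13 bases after it that shares bases with the later ISRE match. The Ifitm2 window held 1 ISRE match that begins 46 bases before the start. The Ifitm1 window held neither motif, and the Ifi35 window held 1 GAS match beginning 7 bases after the start. The windows of Ifi44 and Irf9 held neither motif. Of the 31 matched genes, 17 (54.8%) had an ISRE match in a window, beside 3.99% of the 27025 genes with windows, and 11 (35.5%) had a GAS match, beside 9.55%. A match is a description of these letters, not a site shown to be bound.

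Levels below are normalized counts, given for replicates 1, 2 and 3 in that order. The total number of recovered whole reads was lowest in RasV12 CD11b+ 2 (2951629) and RasV12 CD11b+ 1 (3642570), and ran from 7883870 to 34601205 in the other 10 libraries. A single read equalled 0.358 to 5.54 normalized counts, and its value was highest in those shallowest libraries. Olfactory and vomeronasal receptor genes, which these cells are not known to use, served as a yardstick of background reads. Scaled by length to all genes, their level stood for 36.7 to 45.6% of nuclear counts in the tumor phagocytes, against 2.9, 28.4 and 3.1% in control CD11b+ libraries. In GFP+ libraries that share was 1.4 to 2.5% with RasV12 and 0.4 to 1.1% in controls. Itgam, the CD11b gene, had 1350.2 to 3101 normalized counts in RasV12 CD11b+ against 5009.8 to 5256 in control CD11b+ libraries, 0.5 in RasV12 GFP+ 1 and no reads in the other GFP+ libraries.

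Set against that receptor-gene level per kilobase, the interferon stimulated genes stood out least in the tumor phagocytes and in control CD11b+ 2. In RasV12 CD11b+ libraries 17, 16 and 8 of the 40 were at or under the receptor-gene level, and their median was 1.3, 1.54 and 2.88 times that level. In control CD11b+ libraries 2, 11 and 1 were at or under it, with medians of 15.79, 2.28 and 17.27 times. RasV12 GFP+ libraries had 12, 10 and 5 genes at or under it and medians of 4.0, 8.12 and 22.65 times, and control GFP+ libraries 15, 13 and 10 genes and medians of 12.66, 27.45 and 12.37 times. The 3 tumor phagocyte libraries and control CD11b+ 2 thus had the lowest medians of the 12.

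**Figure D1:**
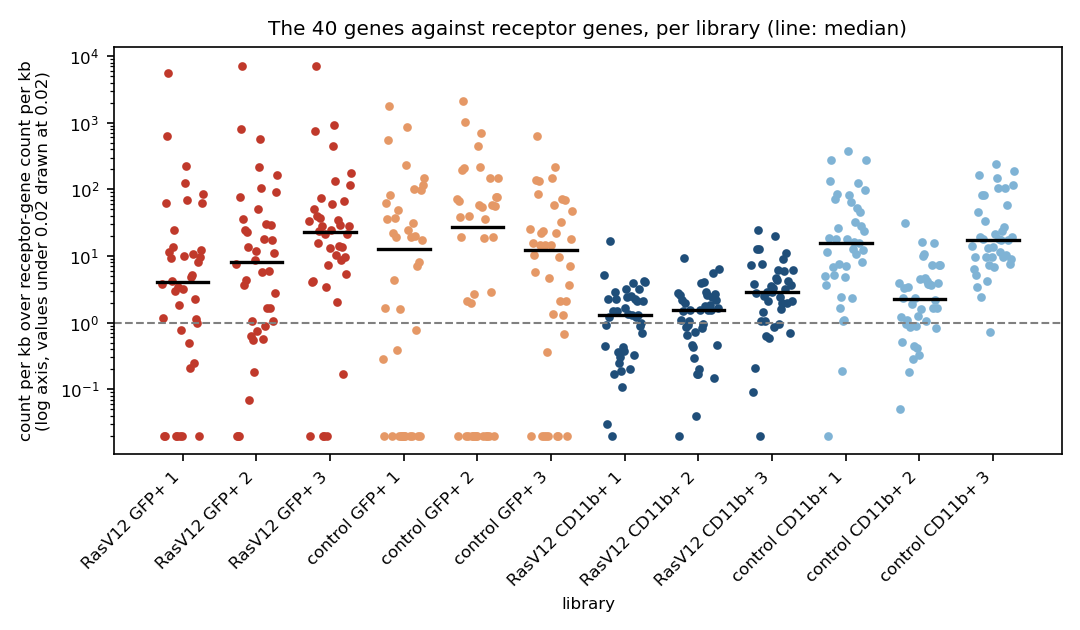
Normalized count per kilobase of each of the 40 genes divided by that of olfactory and vomeronasal receptor genes (vertical log axis, no unit), for each of the 12 libraries (horizontal axis). Points are genes, black lines medians and the dashed line marks 1; the medians of 1.3, 1.54 and 2.88 in RasV12 CD11b+ and 2.28 in control CD11b+ 2 lie closest to it.

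Per length, Ifitm3 led the 40 genes in 3 of the 4 groups. Its FPKM averaged 976 ± 187 in RasV12 GFP+ and 113 ± 58.2 in control GFP+ cells, and 72.0 ± 18.7 in RasV12 CD11b+ and 64.6 ± 16.1 in control CD11b+ cells (SD, n = 3 each). Ifitm3 made up 62.7, 54.6 and 43.4% of the summed normalized counts of the 40 genes in RasV12 GFP+ libraries, against 19.0, 13.5 and 12.8% in control GFP+ libraries. In control CD11b+ cells Bst2, the membrane tether of budding viruses, was first at 69.0 ± 32.8 FPKM, beside 33.9 ± 31.2 FPKM in RasV12 CD11b+ cells. The first places there were not separated beyond their spread, since the ranges of Bst2 and Ifitm3 overlapped.

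**Figure D2:**
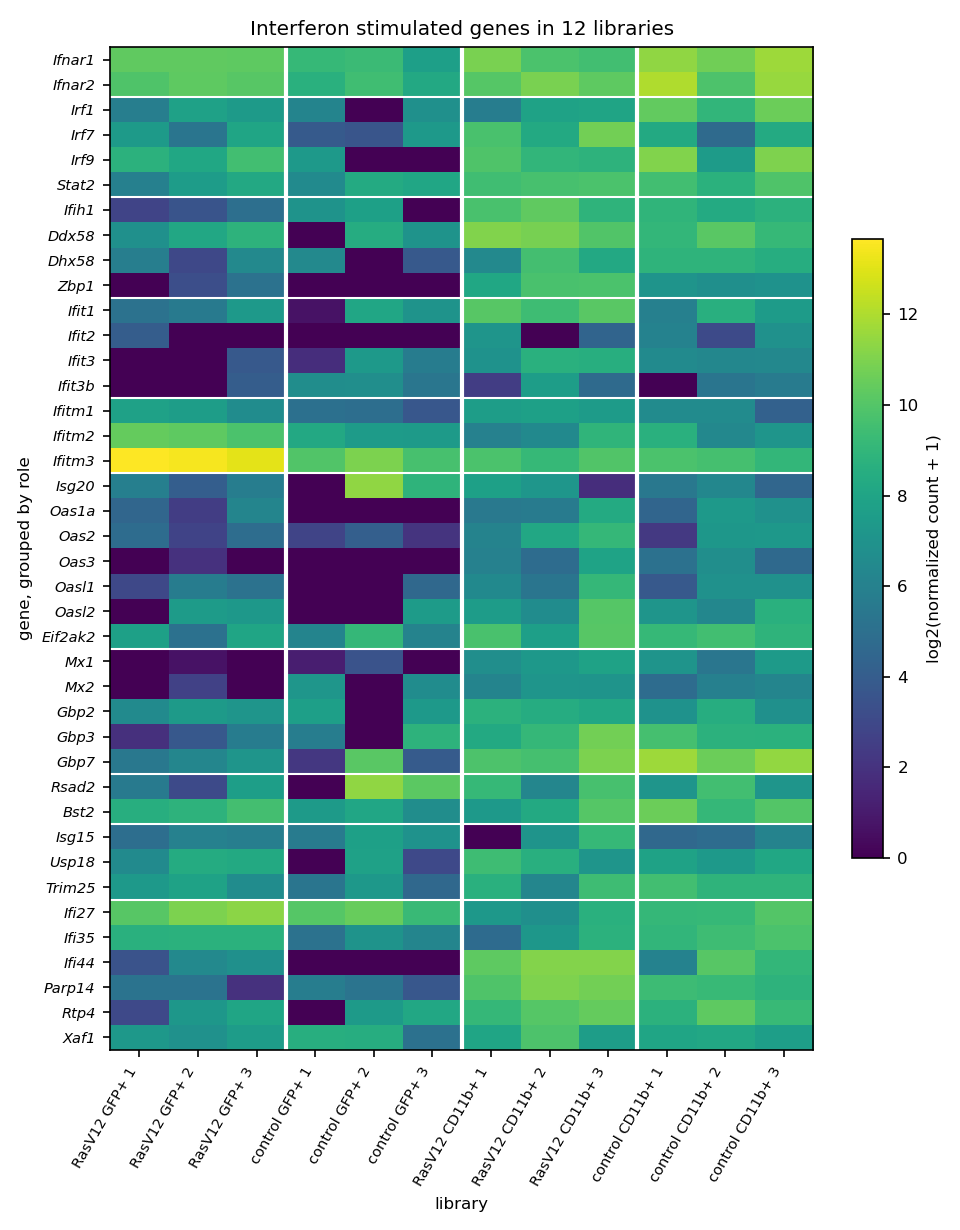
Level of each of the 40 genes (rows, grouped by role from receptors at the top) in each of the 12 libraries (columns), as log2(normalized count + 1), with white lines between groups and roles. The brightest cells are Ifitm3 in RasV12 GFP+ libraries (8754 to 12926 normalized counts), and the dark cells with no reads are most frequent in control GFP+ libraries (8 to 13 of the 40 genes).

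In GFP+ cells the question was how cells sorted from RasV12 tumors differ from GFP+ cells of control cerebellum. Of the 40 genes, 3 rose in RasV12 GFP+ cells (Ifitm3, Ifi44 and Irf9), none fell and 37 did not pass (limma-trend, Benjamini-Hochberg adjusted p under 0.05 over 29835 genes). The share called was 7.5%, beside 6.79% of all tested genes in either direction and 4.14% higher. At an unadjusted p under 0.05, 11 were higher and 3 lower. edgeR called 2 higher and none lower, and DESeq2 7 higher and 3 lower (Isg20, Mx1 and Mx2). Of all tested genes, edgeR called 2.29% higher and 1.47% lower, and DESeq2 11.0% higher and 5.47% lower. RasV12 and control libraries did not overlap for 10 genes that were higher (Ifitm1, Ifitm2, Ifitm3, Irf9, Oas1a, Bst2, Ifi35, Ifi44, Ifnar1 and Ifnar2) and 1 that was lower (Ifit3b), where 17.2% and 10.9% of all tested genes did so. The median log2 fold change of the 40 was 1.33 (1.43 with genes that had no reads in a group at their bound), beside 0.56 over all tested genes, and 27 of the 40 were above 0.

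In CD11b+ cells the question was how tumor phagocytes differ from those of control cerebellum. None of the 40 genes passed in RasV12 CD11b+ against control CD11b+ cells by limma-trend, edgeR or DESeq2, where limma-trend called 5.36% of all tested genes (2.97% higher and 2.39% lower). Of all tested genes edgeR called 1.45% and DESeq2 7.9%. At an unadjusted p under 0.05, 3 were lower and none higher. The libraries did not overlap for 6 genes that were higher (Ifit1, Ifit3, Ifitm1, Ifi44, Parp14 and Zbp1) and 3 that were lower (Irf1, Ifi27 and Ifi35), beside 19.0% and 8.59% of all tested genes. The median log2 fold change was 0.45, below the 0.74 of all tested genes. The median standard error of the 40 genes was 1.46 on the log2 scale, which sets how small a change these libraries could show.

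**Figure D3:**
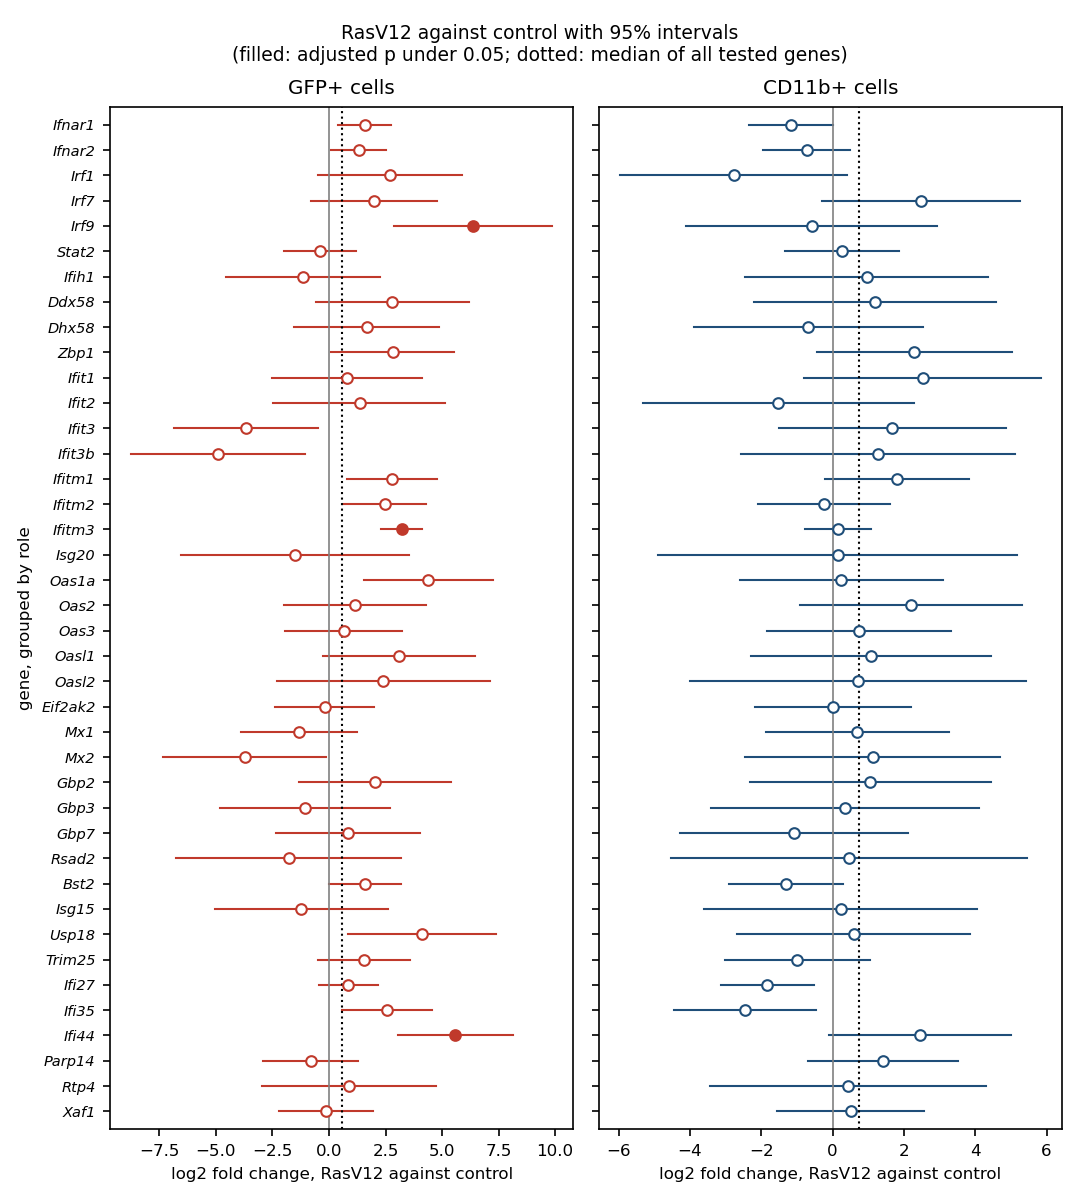
Log2 fold change of RasV12 against control (horizontal axes, on the scale of log2(normalized count + 1)) for each of the 40 genes in GFP+ cells (left) and CD11b+ cells (right), with 95% intervals from limma-trend. Filled points passed at an adjusted p under 0.05 and dotted lines are the medians of all tested genes, 0.56 and 0.74; 3 genes passed in GFP+ cells and none in CD11b+ cells.

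Between the cell types, limma-trend called more genes higher than lower in CD11b+ cells, among the 40 and among all tested genes alike. In RasV12 tumors 10 genes were higher in CD11b+ than in GFP+ cells (Mx1, Parp14, Zbp1, Oas3, Ifit3, Ifi44, Ifih1, Mx2, Gbp3 and Stat2) and 3 lower (Ifitm3, Ifi27 and Ifitm2). Together these were 32.5%, beside 40.1% of all tested genes (29.8% higher and 10.2% lower), with a median log2 fold change of 2.43, beside 1.79 over all. The 10 higher genes were a smaller share of the 40 than that 29.8%. In control cerebellum 16 genes were higher in CD11b+ than in GFP+ cells and none lower. At an unadjusted p under 0.05, 24 were higher and none lower, and edgeR called none lower but DESeq2 1. DESeq2 called 8.48% of all tested genes lower there. The 16 were 40% of the 40 genes, beside 26.2% of all tested genes (19.3% higher), with a median log2 fold change of 2.93, beside 1.80. Libraries of the 2 cell types did not overlap for 18 genes higher and 3 lower in tumors, beside 36.0% and 14.8% of all genes, and for 20 higher and none lower in controls, beside 32.9% and 12.7%. By edgeR 2 were higher and 3 lower in tumors and 7 higher in controls. With the receptor-gene level subtracted, 2 were higher and 5 lower in tumors and 5 higher in controls. All tested genes turned likewise in tumors, with 5.15% higher and 10.6% lower by edgeR and 12.7% higher and 27.0% lower with the level subtracted. In controls these shares were 9.76% and 5.7% by edgeR and 7.98% and 8.31% with the level subtracted. In every alternative the calls of Parp14, Ifitm3 and Ifi27 in tumors and of Ifi44, Parp14, Ifnar1 and Ifnar2 in controls remained, and the others were lost in at least 1. The tumor and the control comparison share no libraries.

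**Figure D4:**
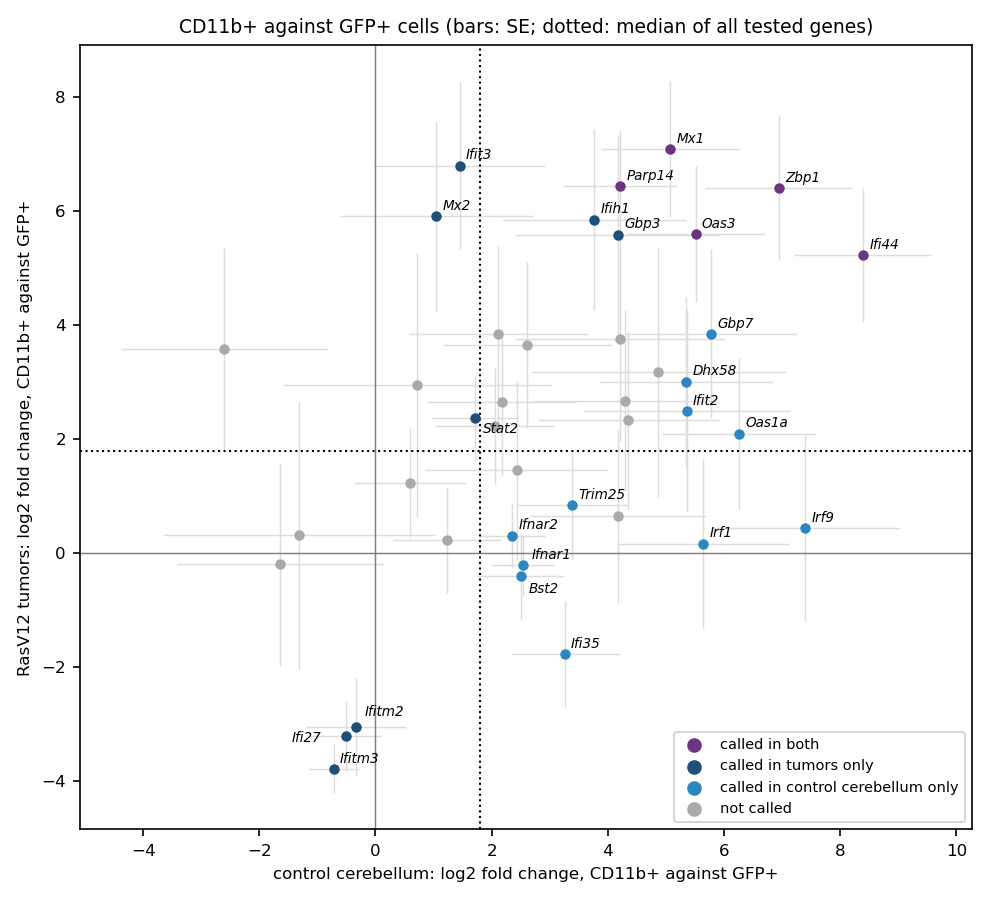
Log2 fold change of CD11b+ against GFP+ cells in RasV12 tumors (vertical axis) and in control cerebellum (horizontal axis) for the 40 genes, with standard errors as bars. Colors mark genes that passed in both, in 1 or in neither comparison and dotted lines the medians of all tested genes; 5 genes passed as higher in both (Ifi44, Zbp1, Oas3, Mx1 and Parp14), and Ifitm3, Ifi27 and Ifitm2 passed as lower in tumors.

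The change with RasV12 itself differed between the cell types for 2 of the 40 genes, Ifitm3 and Ifi35, with the lower effect in CD11b+ cells for both. That is 5% of the genes, beside 4.4% of all tested genes (2.34% lower and 2.06% higher). At an unadjusted p under 0.05, 10 were lower and 2 higher. edgeR called 3 lower and none higher, and DESeq2 6 lower and none higher. Of all tested genes, edgeR called 2.49% lower and 0.902% higher, and DESeq2 5.6% lower and 4.89% higher. The median difference was -0.98, beside 0.07 over all tested genes. In bulk libraries, fewer cells of a type and less RNA per cell cannot be told apart.

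Markers of other cells moved with these groups, and their part in the results was not tested. Summed over 9 myeloid and microglial markers, levels ran from 217 to 538 normalized counts in RasV12 GFP+ and from 35.6 to 831 in control GFP+ libraries, so these overlapped. Of the 9, 7 had a positive log2 fold change in GFP+ cells (median 2.44), 4 were higher and 1 lower at an unadjusted p under 0.05, and none passed. Csf1r, a receptor gene of microglia and macrophages, had 23.0, 1.7 and 3.6 normalized counts in RasV12 GFP+ and no reads in control GFP+ libraries, whereas the highest control sum, in control GFP+ 2, came mostly from P2ry12, Tmem119 and C1qa (354.5, 269 and 190.1). In CD11b+ cells the 9 markers ran from 44120 to 69720 in RasV12 and from 148500 to 481700 in control libraries. Of the 9, 7 were lower without overlap in RasV12 CD11b+, beside 8.59% of all tested genes, although none passed. Neutrophil markers summed to 1390 to 2642 in RasV12 CD11b+ and 16630 to 33440 in control CD11b+ libraries, where 3 of 6 fell, and Ly6g was at 0 in RasV12 CD11b+. Endothelial markers summed to 2503 to 3006 in RasV12 GFP+ against 6694 to 9741 in control GFP+ libraries, where 2 of 6 fell. Flt1 was the endothelial marker with a positive log2 fold change there, with 1824.5, 1487 and 1861 in RasV12 GFP+ against 1752, 873 and 1101 in control GFP+ libraries. In phagocytes the endothelial markers summed to 2794 to 3799 with RasV12, against 497 to 1329 in controls. Of the 6, only Kdr passed there (limma-trend, adjusted p = 0.0205). Kdr had 1315, 1983 and 2251 with RasV12, against 90.1, 338 and 170 in controls. Pecam1 and Cdh5 were higher with RasV12 without passing, and Cldn5, Flt1 and Esam overlapped between the groups. Monocyte markers summed to 1960.0 to 3375 in RasV12 phagocytes, against 554 to 1328 in controls, and none of the 4 passed. The highest of them was Ccr2, with 1818, 1196 and 1959 with RasV12, against 575, 283 and 223 in controls. Ly6c2, Plac8 and Ms4a4c overlapped between the groups. Ly6c2 had 0, 0 and 407 with RasV12, against 188, 0 and 158 in controls. Plasmacytoid dendritic cell markers summed to 74.4 to 167.4 in RasV12 GFP+ against 19.3 to 93.8 in control GFP+ libraries, where 1 of 4, Ccr9, rose (adjusted p = 0.00999). In phagocytes they summed to 3610.0 to 4345 with RasV12, against 11190.0 to 26170.0 in controls, and none of the 4 passed. Most of these sums was Siglech, with 2081, 2254 and 2727 with RasV12, against 23267, 10012 and 26057 in controls. Ccr9 went the other way, with 1488, 1401 and 1425 with RasV12, against 95.6, 1141 and 98.5 in controls. The sums thus follow Siglech rather than the list, and no amount of this cell type can be read from them. Lymphocyte markers summed to 32.7 to 103 in RasV12 GFP+ against 0 to 87.4 in control GFP+ libraries, and to 347 to 3240.0 in RasV12 CD11b+ against 74.7 to 965.5 in control CD11b+ libraries. In phagocytes 5 of the 5 tested lymphocyte markers had a positive log2 fold change (median 2.49), and none passed. Of 6 markers each, 6 oligodendrocyte, 5 neuron and 2 astrocyte markers fell in RasV12 GFP+ cells. Mitochondrial genes took 1.53 to 2.62% of counts in RasV12 GFP+ and 20.1 to 30.43% in control GFP+ libraries, and 13.3 to 17.67% in RasV12 CD11b+ and 0.63 to 2.54% in control CD11b+ libraries.

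The receptor subunits were measured with standard errors of 0.54 and 0.57 on the log2 scale, below the median of 1.46. Ifnar1 had 1262, 1258 and 1248 normalized counts in RasV12 GFP+, against 565, 638 and 205 in control GFP+ libraries. In CD11b+ cells it had 1952, 892 and 734 in RasV12 CD11b+, against 2692, 1651 and 3279 in control CD11b+ libraries. Ifnar1 lay above every control in RasV12 GFP+ libraries, without overlap but without passing (log2 fold change 1.58 ± 0.54, adjusted p = 0.109). Ifnar2, the subunit that binds interferon most tightly, had 964, 1253 and 1091 normalized counts in RasV12 GFP+, against 403, 697 and 304 in control GFP+ libraries, and 1069.5, 1916 and 1223 in RasV12 CD11b+, against 4148, 903 and 3012 in control CD11b+ libraries. It too did not overlap in GFP+ cells (log2 fold change 1.31 ± 0.57, adjusted p = 0.221). In control cerebellum both receptor genes were higher in CD11b+ than in GFP+ cells, Ifnar1 by a log2 fold change of 2.54 ± 0.54, adjusted p = 0.0053 and Ifnar2 by a log2 fold change of 2.35 ± 0.57, adjusted p = 0.0103, and these calls remained in all 19 alternatives each. In tumors the same comparison gave a log2 fold change of -0.21 ± 0.54 (adjusted p = 0.772) for Ifnar1 and a log2 fold change of 0.31 ± 0.57 (adjusted p = 0.68) for Ifnar2, neither past the threshold. The test of that difference missed the threshold for both (adjusted p = 0.0598 for Ifnar1 and 0.183 for Ifnar2). For Ifnar1 it passed in some alternatives, among them edgeR (-3.57, adjusted p = 0.045) and DESeq2 (-2.51, adjusted p = 0.023). It also passed with upper-quartile scaling (adjusted p = 0.0365) and with the receptor-gene level subtracted (adjusted p = 0.0459). Without control CD11b+ 2 it passed for Ifnar1 and Ifnar2 (adjusted p = 0.039 and 0.026).

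Of the 4 transcription factors, Irf9 passed in GFP+ cells. Irf9 (ENSMUSG00000002325.15, chr14:55603571-55610030 on GRCm38), the DNA-binding partner of STAT2, had 439, 285 and 724 normalized counts in RasV12 GFP+, against 162, 0 and 0 in control GFP+ libraries. In 2 of the 3 control libraries there were no reads, and the other lay below every RasV12 library. It rose in RasV12 GFP+ cells (log2 fold change 6.37 ± 1.63, adjusted p = 0.0319), a call that 10 of 17 alternatives ended (adjusted p between 0.000749 and 0.328), among them edgeR and leaving out RasV12 GFP+ 1, 2 or 3 (adjusted p = 0.101, 0.0774 and 0.111) or control GFP+ 2 or 3 (0.113 and 0.101). Irf9 overlaps Rnf31 on the same strand, as Ifnar2, Ifitm2, Gbp7 and Rtp4 each overlap another gene, and how reads in overlaps were counted is not stated, so their values are uncertain. In CD11b+ cells Irf9 had 958, 515 and 459 in RasV12 CD11b+, against 2124, 177 and 2072 in control CD11b+ libraries. It was higher in control CD11b+ than in control GFP+ cells (log2 fold change 7.40 ± 1.63, adjusted p = 0.00626). Of 18 alternatives 3 ended that call, among them edgeR (log2 fold change 4.49, adjusted p = 0.0764) and subtraction of the receptor-gene level (4.91, adjusted p = 0.27).

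Irf1, a factor induced by both interferon types, had 56.0, 228 and 172 normalized counts in RasV12 GFP+, against 71.9, 0 and 113 in control GFP+ libraries, and 53.5, 233 and 249.8 in RasV12 CD11b+, against 1308, 516 and 1532 in control CD11b+ libraries. All RasV12 CD11b+ libraries lay below the control CD11b+ libraries, without passing (log2 fold change -2.78 ± 1.48, adjusted p = 0.242). Control CD11b+ cells had more Irf1 than control GFP+ cells (log2 fold change 5.64 ± 1.48, adjusted p = 0.015), a call lost without control CD11b+ 3 (log2 fold change 5.35, adjusted p = 0.0518). Irf7, which amplifies interferon alpha production, had 174, 38.4 and 261 normalized counts in RasV12 GFP+, against 13.7, 11.2 and 161 in control GFP+ libraries, and 847, 310.1 and 1708 in RasV12 CD11b+, against 309, 25.4 and 320.0 in control CD11b+ libraries. The Irf7 groups overlapped in both cell types. Stat2 had 60.5, 189.7 and 305 normalized counts in RasV12 GFP+, against 92.1, 323 and 272 in control GFP+ libraries, and 695, 814 and 871 in RasV12 CD11b+, against 729, 418 and 939.5 in control CD11b+ libraries. Stat2 groups overlapped in both cell types, and Stat2 was higher in CD11b+ than in GFP+ cells of tumors (log2 fold change 2.37 ± 0.74, adjusted p = 0.0228). Of 19 alternatives 6 ended that call, among them leaving out RasV12 GFP+ 1 (adjusted p = 0.0953). By edgeR the log2 fold change was 0.80 (adjusted p = 0.47), and with the receptor-gene level subtracted it was 1.32 (adjusted p = 0.312).

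None of the 4 sensors of foreign nucleic acid passed for RasV12 against control in either cell type with all libraries in the limma-trend fit. Ifih1, the long double-stranded RNA sensor MDA5, had 5.9, 10.9 and 30.8 normalized counts in RasV12 GFP+, against 130.1, 215 and 0 in control GFP+ libraries, and 838, 1290.4 and 463 in RasV12 CD11b+, against 482, 328 and 439.8 in control CD11b+ libraries. All 3 tumor phagocyte libraries lay above all tumor GFP+ libraries, and Ifih1 was higher in these phagocytes (log2 fold change 5.85 ± 1.59, adjusted p = 0.0119). Of 19 alternatives 3 ended that call, among them edgeR (log2 fold change 4.31, adjusted p = 0.0593) and subtraction of the receptor-gene level (4.23, adjusted p = 0.218). Zbp1, a sensor of Z-form nucleic acid, had 0, 8.6 and 34.7 normalized counts in RasV12 GFP+, against 0, 0 and 0 in control GFP+ libraries, and 276, 853 and 889 in RasV12 CD11b+, against 131, 109 and 125 in control CD11b+ libraries. Control GFP+ cells had no reads of it. With reads pooled over libraries, RasV12 GFP+ was at least 21.6-fold higher, taking 3 reads in all control GFP+ libraries as the floor. That bound leaves out the spread between libraries, and limma-trend did not pass (adjusted p = 0.246) where DESeq2 did (adjusted p = 0.0025). RasV12 GFP+ 1 also had no reads, and without RasV12 GFP+ 3 the bound was 4.94-fold. Zbp1 was higher in CD11b+ than in GFP+ cells of tumors (log2 fold change 6.41 ± 1.27, adjusted p = 0.00289) and at least 162-fold higher in control CD11b+ cells (adjusted p = 0.00223). The tumor call was lost by edgeR (log2 fold change 4.25, adjusted p = 0.0928) and with the receptor-gene level subtracted (4.39, adjusted p = 0.191). That subtraction also ended the control call (4.54, adjusted p = 0.263).

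Dhx58, the RIG-I-like regulator LGP2, had 56.9, 6.9 and 85.1 normalized counts in RasV12 GFP+, against 84.9, 0 and 13.2 in control GFP+ libraries, and 84.7, 775 and 306 in RasV12 CD11b+, against 479, 473 and 365 in control CD11b+ libraries. Control CD11b+ cells exceeded control GFP+ cells (log2 fold change 5.35 ± 1.49, adjusted p = 0.0195), a call lost without control GFP+ 2, control CD11b+ 1 or control CD11b+ 2 (log2 fold change 3.64, 5.28 and 5.29, adjusted p = 0.0652, 0.0507 and 0.0607). Dhx58 overlaps an antisense gene, and the library kits do not mark strand. Ddx58, which encodes RIG-I, passed in no comparison. It averaged 285 ± 167 in RasV12 GFP+ and 159 ± 176 in control GFP+, and 1676 ± 604 in RasV12 CD11b+ and 742 ± 341 normalized counts in control CD11b+ cells (SD, n = 3 each).

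IFIT proteins bind foreign RNA ends. None of the 4 IFIT genes passed for RasV12 against control in either cell type, and in GFP+ cells 2 had a positive and 2 a negative log2 fold change. Ifit3 had 0, 0 and 13.2 normalized counts in RasV12 GFP+, against 2.4, 159.6 and 52.9 in control GFP+ libraries, and 125, 404 and 384 in RasV12 CD11b+, against 90.9, 79.3 and 80.7 in control CD11b+ libraries. It was higher in CD11b+ than in GFP+ cells of tumors (log2 fold change 6.80 ± 1.47, adjusted p = 0.00436). Of 19 alternatives 3 ended that call, among them edgeR (log2 fold change 4.76, adjusted p = 0.106) and subtraction of the receptor-gene level (4.21, adjusted p = 0.159). Without control GFP+ 1, Ifit3 passed as lower in RasV12 GFP+ cells (log2 fold change -5.26, adjusted p = 0.0414). Its near copy Ifit3b had 0, 0 and 15.4 normalized counts in RasV12 GFP+, against 101, 108 and 39.7 in control GFP+ libraries, and was the 1 gene of the 40 whose RasV12 GFP+ libraries all lay below the controls (log2 fold change -4.92 ± 1.78, adjusted p = 0.131). Reads of Ifit3 and Ifit3b may have been split between the copies, so both values are uncertain. Ifit2 had reads in 1 GFP+ library, with 15.4 normalized counts in RasV12 GFP+ 1. In CD11b+ cells it had 138, 0 and 19.8 in RasV12 CD11b+, against 66.6, 7.5 and 119 in control CD11b+ libraries, and it was at least 111-fold higher in control CD11b+ than in control GFP+ cells (adjusted p = 0.0402). The Ifit2 call was lost without any single one of the control libraries other than control CD11b+ 2 (adjusted p = 0.0821 to 0.117). Without control CD11b+ 3 the bound was 60.4-fold. Ifit1 passed in no comparison and averaged 82.1 ± 72.0 in RasV12 GFP+ and 132 ± 134 in control GFP+, and 972 ± 258 in RasV12 CD11b+ and 212 ± 169 normalized counts in control CD11b+ cells (SD, n = 3 each).

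Of the 3 IFITM genes, only Ifitm3 passed for RasV12 against control in GFP+ cells in the limma-trend fit, and none in CD11b+ cells. Their membrane proteins hinder fusion of viruses with the cell, and Ifitm3 is known in mouse embryos as a germ cell gene, fragilis. Ifitm3 (ENSMUSG00000025492.6, chr7:141009586-141010770 on GRCm38, minus strand) had 12926, 11409 and 8754 normalized counts in RasV12 GFP+, against 991, 2032 and 815 in control GFP+ libraries. Every RasV12 GFP+ library lay several fold above every control, and Ifitm3 rose (log2 fold change 3.21 ± 0.43, adjusted p = 0.000793), in all 18 alternatives (log2 fold change 2.94 to 3.60, adjusted p = 3.91e-09 to 0.016). In CD11b+ cells Ifitm3 had 882, 576 and 981 in RasV12 CD11b+, against 870.1, 796 and 524 in control CD11b+ libraries. Those groups overlapped, with a log2 fold change of 0.15 ± 0.43 and a 95% interval of -0.78 to 1.08 (adjusted p = 0.845). The difference of the RasV12 effects, CD11b+ minus GFP+, was -3.05 ± 0.61 (adjusted p = 0.0133) and passed in all 24 alternatives (-3.79 to -2.67, adjusted p = 0.000351 to 0.0496). In tumors Ifitm3 was lower in CD11b+ than in GFP+ cells (log2 fold change -3.78 ± 0.43, adjusted p = 0.000199), and in control cerebellum the same comparison gave a log2 fold change of -0.72 ± 0.43 (adjusted p = 0.213).

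Ifitm2 and Ifitm1 lie beside Ifitm3 on chromosome 7. Ifitm2 had 1381, 1250.2 and 899.8 normalized counts in RasV12 GFP+, against 296, 178 and 174 in control GFP+ libraries. The groups did not overlap, but the change did not pass (log2 fold change 2.46 ± 0.86, adjusted p = 0.116). In CD11b+ cells Ifitm2 had 62.4, 88.6 and 492 in RasV12 CD11b+, against 407, 80.8 and 140.2 in control CD11b+ libraries, and it was lower in CD11b+ than in GFP+ cells of tumors (log2 fold change -3.04 ± 0.86, adjusted p = 0.0144), except when RasV12 CD11b+ 1 and 2 and control CD11b+ 2, of low depth or high receptor-gene level, were left out together (log2 fold change -1.23, adjusted p = 0.197). Ifitm1 had 227, 193 and 101 normalized counts in RasV12 GFP+, against 32.1, 29.7 and 12.2 in control GFP+ libraries. It was likewise higher without overlap and did not pass (log2 fold change 2.80 ± 0.93, adjusted p = 0.0984). In CD11b+ cells Ifitm1 had 192, 216 and 177 in RasV12 CD11b+, against 94.9, 95.8 and 17.8 in control CD11b+ libraries, the highest 3 of the 6 in RasV12. DESeq2 called both Ifitm2 and Ifitm1 in GFP+ cells.

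**Figure D5:**
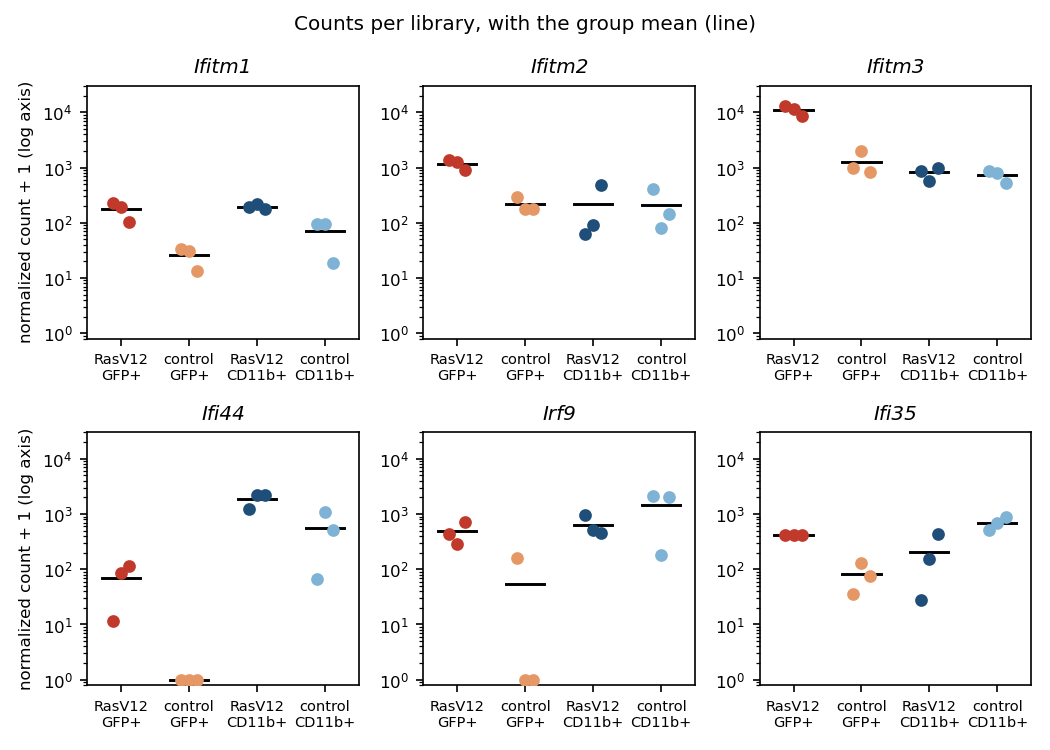
Normalized counts (vertical log axes, count + 1) of Ifitm1, Ifitm2, Ifitm3, Ifi44, Irf9 and Ifi35 in each library of the 4 groups (horizontal axis), with group means as lines. For the 3 Ifitm genes every RasV12 GFP+ library lies above every control GFP+ library, as for 17.2% of all tested genes. Ifi44 has no reads in control GFP+ cells, and Ifi35 is near 400 normalized counts in all RasV12 GFP+ libraries.

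The OAS enzymes make 2′-5′ oligoadenylate, which activates the RNA-degrading enzyme RNase L. Oas1a had 21.7, 4.6 and 73.3 normalized counts in RasV12 GFP+, against 0, 0 and 0 in control GFP+ libraries, and 44.6, 49.8 and 320.1 in RasV12 CD11b+, against 21.2, 168 and 119 in control CD11b+ libraries. Without reads in control GFP+ cells, it was at least 50.4-fold higher in RasV12 GFP+ cells, and limma-trend did not pass (adjusted p = 0.0636). Oas1a passed with upper-quartile scaling (adjusted p = 0.0483), with a pseudocount of 0.5 (adjusted p = 0.0354) and by DESeq2 (adjusted p = 0.000299). RasV12 GFP+ 3 held 205 of the 261 reads, and without it the bound was 18.5-fold. Control CD11b+ cells were at least 127-fold above control GFP+ cells (adjusted p = 0.0049). That call was lost with quantile normalization (adjusted p = 0.0783) and with the receptor-gene level subtracted (adjusted p = 0.0896). Oas3 had 2.9 normalized counts in RasV12 GFP+ 2 and no reads in any other GFP+ library. In CD11b+ cells it had 62.4, 27.7 and 244 in RasV12 CD11b+, against 33.7, 108 and 24.3 in control CD11b+ libraries, and it was higher than in GFP+ cells in tumors (log2 fold change 5.60 ± 1.20, adjusted p = 0.0041) and at least 52.5-fold higher in controls (adjusted p = 0.00582). Per length, Oas3 nevertheless lay under the receptor-gene level in all 3 RasV12 CD11b+ libraries (0.11, 0.04 and 0.59 times). Quantile normalization ended the tumor and the control call of Oas3 (adjusted p = 0.074 and 0.111). The tumor call was also lost by edgeR (adjusted p = 0.092), and the control call with FPKM (adjusted p = 0.0753).

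The other genes of RNA decay and translation block passed in no comparison. Oas2 averaged 20.4 ± 12.7 in RasV12 GFP+ and 8.6 ± 7.2 in control GFP+, and 302 ± 239 in RasV12 CD11b+ and 103 ± 85.9 normalized counts in control CD11b+ cells (SD, n = 3 each). The related Oasl1 averaged 31.4 ± 23.1 in RasV12 GFP+ and 7.8 ± 13.5 in control GFP+, and 222 ± 275 in RasV12 CD11b+ and 84.2 ± 61.4 normalized counts in control CD11b+ cells (SD, n = 3 each). For Oasl2 the means were 110.3 ± 96.5 in RasV12 GFP+ and 60.4 ± 105 in control GFP+, and 453 ± 537 in RasV12 CD11b+ and 208 ± 174 normalized counts in control CD11b+ cells (SD, n = 3 each). In each group the spread of these genes was of the order of their mean. Eif2ak2, the RNA-dependent kinase PKR, averaged 169.6 ± 120.4 in RasV12 GFP+ and 229 ± 275 in control GFP+, and 723 ± 460.1 in RasV12 CD11b+ and 593 ± 143 normalized counts in control CD11b+ cells (SD, n = 3 each). Isg20, an RNA exonuclease, had 58.3, 16.1 and 54.0 normalized counts in RasV12 GFP+, against 0, 2682 and 468 in control GFP+ libraries, so 1 control library carried most of its counts. DESeq2 called Isg20 lower in RasV12 GFP+ cells.

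The Mx and GBP genes encode large GTPases that trap viral particles or attack membranes around pathogens. Mx1 had 0, 0.6 and 0 normalized counts in RasV12 GFP+, against 1.2, 10.4 and 0 in control GFP+ libraries, and 107, 155 and 237 in RasV12 CD11b+, against 131, 40.4 and 173 in control CD11b+ libraries. It was higher in CD11b+ than in GFP+ cells of tumors, 1460-fold with a 95% counting interval of 260 to 57600 from 1 read in RasV12 GFP+ cells (adjusted p = 0.00134), and also in controls (log2 fold change 5.07 ± 1.19, adjusted p = 0.00867). With the receptor-gene level subtracted neither call passed (adjusted p = 0.588 and 0.188). Mx2 had 0, 5.2 and 0 normalized counts in RasV12 GFP+, against 144, 0 and 99.7 in control GFP+ libraries, and 71.3, 139 and 132 in RasV12 CD11b+, against 27.4, 61.4 and 72.9 in control CD11b+ libraries. It was higher in CD11b+ than in GFP+ cells of tumors (log2 fold change 5.91 ± 1.66, adjusted p = 0.0142), a call lost without RasV12 GFP+ 3 (log2 fold change 5.47, adjusted p = 0.0511) and with that level subtracted (log2 fold change 0.00, adjusted p = 1). Without control GFP+ 2, Mx2 passed as lower in RasV12 GFP+ cells (log2 fold change -6.04, adjusted p = 0.0162). In RasV12 CD11b+ libraries Mx2 lay at 0.25, 0.43 and 0.62 times the receptor-gene level per length.

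Gbp3 had 2.7, 12.6 and 52.6 normalized counts in RasV12 GFP+, against 54.0, 0 and 449.7 in control GFP+ libraries, and 312, 548 and 1746 in RasV12 CD11b+, against 782, 445 and 415 in control CD11b+ libraries. It was higher in CD11b+ than in GFP+ cells of tumors (log2 fold change 5.59 ± 1.75, adjusted p = 0.0226), a call lost without RasV12 GFP+ 1 or 2 or RasV12 CD11b+ 3 (adjusted p = 0.0871, 0.0571 and 0.0676). Gbp7 had 42.5, 77.4 and 138 normalized counts in RasV12 GFP+, against 3.6, 1161 and 14.2 in control GFP+ libraries, and 927, 786 and 1964 in RasV12 CD11b+, against 3189.6, 1518 and 2807 in control CD11b+ libraries. One control GFP+ library, replicate 2, was far above the other 2, and Gbp7 was higher in control CD11b+ than in control GFP+ cells (log2 fold change 5.78 ± 1.48, adjusted p = 0.0134). Of 19 alternatives 4 ended that call, among them edgeR (log2 fold change 2.41, adjusted p = 0.206) and DESeq2 (2.67, adjusted p = 0.0988). It was also lost with the control libraries alone in the fit (adjusted p = 0.0706). Without control GFP+ 2, Gbp7 also passed as higher in RasV12 GFP+ cells. Gbp2 passed in no comparison and averaged 134 ± 41.1 in RasV12 GFP+ and 122 ± 108 in control GFP+, and 365 ± 75.4 in RasV12 CD11b+ and 199.8 ± 139.5 normalized counts in control CD11b+ cells (SD, n = 3 each). The Gbp genes are a family of similar copies, so reads may have been split between them.

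Among the membrane and ubiquitin-like genes, none passed for RasV12 against control in either cell type with all libraries in the fit. Bst2, which encodes tetherin, had 379, 457 and 749 normalized counts in RasV12 GFP+, against 172, 273 and 102 in control GFP+ libraries, and 169, 316 and 1045 in RasV12 CD11b+, against 1540.3, 554 and 1024 in control CD11b+ libraries. Bst2 did not overlap in GFP+ cells (log2 fold change 1.58 ± 0.75, adjusted p = 0.271). Between the control cell types Bst2 was higher in CD11b+ cells (log2 fold change 2.50 ± 0.75, adjusted p = 0.0267), a call lost without control GFP+ 1 or 3 or control CD11b+ 1 or 3 (adjusted p = 0.0551, 0.079, 0.0869 and 0.0696). Rsad2, the gene of viperin, had 46.1, 7.5 and 199 normalized counts in RasV12 GFP+, against 0, 2658 and 1209.6 in control GFP+ libraries, with nearly all control counts in replicates 2 and 3. It passed in no comparison with all libraries, and as lower in RasV12 GFP+ cells without control GFP+ 1 (log2 fold change -5.38, adjusted p = 0.0385).

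Isg15 is an interferon-induced ubiquitin-like protein that becomes attached to other proteins, and Usp18 removes it and also blocks the receptor. Isg15 had 29.4, 63.6 and 56.2 normalized counts in RasV12 GFP+, against 51.1, 219.7 and 123 in control GFP+ libraries, and 0, 133 and 561 in RasV12 CD11b+, against 23.5, 26.9 and 68.2 in control CD11b+ libraries. In both cell types its groups overlapped. Usp18 had 92.6, 332 and 310.1 normalized counts in RasV12 GFP+, against 0, 228 and 7.1 in control GFP+ libraries, and it did not pass (log2 fold change 4.12 ± 1.52, adjusted p = 0.138) except without control GFP+ 2, the control with the most counts (log2 fold change 6.23, adjusted p = 0.00814). Trim25, a ubiquitin ligase that activates RIG-I, had 159, 232 and 101 normalized counts in RasV12 GFP+, against 38.6, 155 and 23.4 in control GFP+ libraries, and 406, 77.5 and 672 in RasV12 CD11b+, against 749, 479 and 473 in control CD11b+ libraries. Control phagocytes exceeded control GFP+ cells (log2 fold change 3.38 ± 0.95, adjusted p = 0.0201), a call lost without control GFP+ 1 or 3 or control CD11b+ 1, where the log2 fold change was 3.17, 2.82 and 3.16 (adjusted p = 0.0536, 0.0633 and 0.061).

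The remaining 6 genes included the other change in GFP+ cells. Ifi44 (ENSMUSG00000028037.13, chr3:151730922-151749960), a cytoplasmic protein gene induced by type I interferon, had 10.4, 83.7 and 115 normalized counts in RasV12 GFP+, against 0, 0 and 0 in control GFP+ libraries. With no reads in any control GFP+ library, RasV12 GFP+ cells were at least 94.8-fold higher, and Ifi44 rose (adjusted p = 0.0123). RasV12 GFP+ 1 was well below the other 2 libraries, and without RasV12 GFP+ 3 the bound was 55.7-fold. Of 18 alternatives 6 ended the call (adjusted p between 1.07e-06 and 0.267), among them leaving out RasV12 GFP+ 2 or 3 (adjusted p = 0.0594 and 0.062). In CD11b+ cells Ifi44 had 1212, 2237 and 2204 in RasV12 CD11b+, against 65.1, 1091 and 518 in control CD11b+ libraries. Every RasV12 CD11b+ library lay above every control, without passing (log2 fold change 2.44 ± 1.18, adjusted p = 0.204). Ifi44 was higher in CD11b+ than in GFP+ cells of tumors (log2 fold change 5.23 ± 1.18, adjusted p = 0.00532) and at least 616-fold higher in control cerebellum (adjusted p = 0.000418). The tumor call was lost by edgeR (log2 fold change 3.46, adjusted p = 0.0518).

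Ifi35 (ENSMUSG00000010358.13, chr11:101448407-101458698), which encodes a leucine zipper protein induced by interferon, had 408, 421 and 421 normalized counts in RasV12 GFP+, against 35, 131 and 73.2 in control GFP+ libraries. The RasV12 GFP+ libraries were nearly equal and all above the controls, without passing (log2 fold change 2.56 ± 0.93, adjusted p = 0.131). In CD11b+ cells Ifi35 had 26.7, 149.5 and 438 in RasV12 CD11b+, against 512, 686 and 869.6 in control CD11b+ libraries, and there every RasV12 library lay below every control, also without passing (log2 fold change -2.46 ± 0.93, adjusted p = 0.123). The difference of these effects passed, at -5.03 ± 1.32 (adjusted p = 0.0476), and 15 of 24 alternatives ended the call (adjusted p between 0.00859 and 0.125). It did not pass without any one of RasV12 GFP+ 1, 2 or 3 (adjusted p = 0.103, 0.11 and 0.105), control GFP+ 1 or 3 (0.087 and 0.0746), RasV12 CD11b+ 1 or 2 (0.0522 and 0.0577) or control CD11b+ 1, 2 or 3 (0.0934, 0.059 and 0.125). RasV12 CD11b+ 1, the lowest library, held 6 reads of Ifi35. In control cerebellum Ifi35 was higher in CD11b+ than in GFP+ cells (log2 fold change 3.26 ± 0.93, adjusted p = 0.0221), a call lost without control GFP+ 1 or control CD11b+ 2 or 3, where the log2 fold change was 2.77, 3.24 and 3.07 (adjusted p = 0.07, 0.0592 and 0.0685). Ifi35 overlaps an antisense gene.

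Ifi27, a small membrane protein gene, had 1117, 1981 and 2465 normalized counts in RasV12 GFP+, against 1048, 1409 and 618 in control GFP+ libraries, and 156, 111 and 401 in RasV12 CD11b+, against 551, 558 and 1019 in control CD11b+ libraries. It was lower in CD11b+ than in GFP+ cells of tumors (log2 fold change -3.20 ± 0.61, adjusted p = 0.00236), in all 19 alternatives. The RasV12 CD11b+ libraries all lay below the control CD11b+ libraries, and this was the change nearest the threshold in phagocytes (log2 fold change -1.83 ± 0.61, adjusted p = 0.0895). Without RasV12 CD11b+ 3 both Ifi27 and Ifi35 passed as lower in RasV12 CD11b+ cells. Parp14, an ADP-ribosyltransferase, had 35.7, 35.5 and 2.9 normalized counts in RasV12 GFP+, against 54.0, 37.7 and 12.2 in control GFP+ libraries, and 945, 2060.2 and 1739 in RasV12 CD11b+, against 666, 587 and 452 in control CD11b+ libraries. Parp14 was higher in CD11b+ than in GFP+ cells of tumors (log2 fold change 6.44 ± 0.98, adjusted p = 0.000788) and of control cerebellum (log2 fold change 4.21 ± 0.98, adjusted p = 0.0082), in all 19 alternatives each. Rtp4, a receptor transporter protein gene, passed in no comparison and averaged 139 ± 129 in RasV12 GFP+ and 154 ± 145 in control GFP+, and 996 ± 424 in RasV12 CD11b+ and 758 ± 433 normalized counts in control CD11b+ cells (SD, n = 3 each). Xaf1, a promoter of cell death, likewise passed in none and averaged 153 ± 33.9 in RasV12 GFP+ and 258 ± 196 in control GFP+, and 455 ± 399 in RasV12 CD11b+ and 254 ± 46.6 normalized counts in control CD11b+ cells (SD, n = 3 each).

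A further list held 57 genes of the interferon pathway, of which 48 passed the filter. In RasV12 GFP+ cells 8 of the 48 rose and 1 fell (18.8%, beside 6.79% of all tested genes). The median log2 fold change was 1.56 (1.65 with genes without reads at their bound), beside 0.56 over all tested genes. Igtp, an immunity-related GTPase, had 367, 261 and 356 normalized counts in RasV12 GFP+ and no reads in control GFP+ libraries, at least 437-fold higher (adjusted p = 0.000258). Irf8, a myeloid interferon factor, had 397, 212 and 171 in RasV12 GFP+, against 0, 0 and 12.2 in control GFP+ libraries (log2 fold change 6.69 ± 0.92, adjusted p = 0.000934). The myeloid markers given above, with 7 of 9 positive, moved in the same comparison, and their part in it was not tested. Trim21, an antibody receptor of the cytosol, was at least 234-fold higher (adjusted p = 0.00121), from 244, 194 and 119 in RasV12 GFP+ against no reads. All 3 genes were thus read in every RasV12 GFP+ library and in at most 1 control GFP+ library. Tmem173, the gene of the DNA-sensing adaptor STING, had 2394, 3386 and 2724 in RasV12 GFP+, against 154, 0 and 9.2 in control GFP+ libraries (7.91 ± 1.31, adjusted p = 0.00294). The 1 gene that fell, named after its values were seen, was Sp100 of the nuclear bodies, with 0.5, 58.5 and 0 in RasV12 GFP+, against 147, 144 and 136 in control GFP+ libraries (-5.00 ± 1.32, adjusted p = 0.0367). With the receptor-gene level subtracted, the calls of Trim21 and Tmem173 were lost (adjusted p = 0.172 and 0.075) at log2 fold changes of 7.41 and 8.26, beside 7.49 and 7.91 without the subtraction. With GFP+ libraries alone in the fit, Tmem173 did not pass (log2 fold change 7.91, adjusted p = 0.0668). Of 18 alternatives 12 ended the Sp100 call (log2 fold change -6.87 to -2.76 over all), among them edgeR, DESeq2 and leaving out RasV12 GFP+ 1 or 3 (adjusted p = 0.147 and 0.14) or control GFP+ 1, 2 or 3 (0.0822, 0.0868 and 0.0758). Without single GFP+ libraries the count of genes higher was 4 to 8, lowest without RasV12 GFP+ 1, and it was 5 by edgeR and 3 with the receptor-gene level subtracted. Of all tested genes 1.97 to 4.08%, 2.29% and 2.62% were higher in these settings.

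In RasV12 CD11b+ cells none of the 48 rose and 2 fell (4.17%, beside 5.36% of all tested genes, 2.39% lower). The median log2 fold change was -0.55, beside 0.74 over all tested genes. At an unadjusted p under 0.05, 1 was higher and 7 lower. By edgeR and DESeq2 1 and 3 were lower, beside 1.35% and 3.57% of all tested genes. Ifngr1, the ligand-binding receptor subunit of interferon gamma, had 3146, 2697 and 3012 normalized counts in RasV12 CD11b+, against 32234, 9482 and 37326 in control CD11b+ libraries (log2 fold change -2.93 ± 0.46, adjusted p = 0.00659). Tlr7, an endosomal RNA sensor, had 26.7, 199 and 605 in RasV12 CD11b+, against 12266, 4293 and 7711 in control CD11b+ libraries (-5.63 ± 1.42, adjusted p = 0.0382). Both genes were lower in every tumor phagocyte library, and the Ifngr1 call was lost with CD11b+ libraries alone in the fit (log2 fold change -2.93, adjusted p = 0.118), which called 0 of the 29835 genes. The Tlr7 call was lost without RasV12 CD11b+ 1 or 2 or control CD11b+ 1 or 3 (adjusted p = 0.0972, 0.0668, 0.155 and 0.141). The count of genes lower was 1 to 5 without single CD11b+ libraries, highest without control CD11b+ 2. Of all tested genes 0.459 to 5.04% were lower in these fits, also highest without control CD11b+ 2.

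The difference of the RasV12 effects was lower in CD11b+ cells for 9 of the 48 and higher for none, with 16 lower and 2 higher at an unadjusted p under 0.05, 9 and 12 lower by edgeR and DESeq2, and 1 higher by DESeq2. The 9 were 18.8% of the 48, beside 4.4% of all tested genes (2.34% lower). Only 5 were lower without any one of RasV12 GFP+ 1 or 3, control GFP+ 3, RasV12 CD11b+ 1 or control CD11b+ 1 or 3, and with no filter, and 6 were lower without RasV12 GFP+ 2, with quantile normalization and with the replicate block. The median difference was -2.28, beside 0.07 over all tested genes. The smallest adjusted p were those of Igtp (-9.81 ± 1.33), Ifngr1 (-4.62 ± 0.66), Tmem173 (-11.34 ± 1.85) and Irf8 (-7.99 ± 1.30), in all 24 alternatives each. Between cell types 20 were higher and 1 lower in CD11b+ than in GFP+ cells of tumors (43.8%, beside 40.1% of all tested genes). In control cerebellum 30 were higher and none lower (62.5%, beside 26.2%), and 35 higher and none lower at an unadjusted p under 0.05. The count of genes higher fell to 6 in tumors and 20 in controls by edgeR, to 7 and 15 with the receptor-gene level subtracted, and to 20 in controls with quantile normalization. Without single libraries the tumor count of genes higher was 14 to 17, lowest without RasV12 CD11b+ 1. In tumors Irf5, Trim30a, Uba7 and Ifi204 had the smallest adjusted p, at log2 fold changes of 10.04 ± 1.44, 6.13 ± 0.87, 7.50 ± 1.20 and 6.19 ± 1.18. Tap1, a peptide transporter of antigen presentation, was the 1 gene lower there (-2.53 ± 0.84, adjusted p = 0.0291) and was also named after its values were seen. The Tap1 call was lost without RasV12 GFP+ 1, 2 or 3 or RasV12 CD11b+ 1 (log2 fold change -2.74, -2.49, -2.37 and -2.01, adjusted p = 0.0527, 0.0804, 0.0934 and 0.0939). In control cerebellum Ifngr1, Irf8, Igtp and Tlr7 had the smallest adjusted p, at 6.04 ± 0.46, 11.48 ± 0.92, 9.17 ± 0.94 and 12.85 ± 1.42. The interferon genes themselves were rarely read. Ifnb1, the gene of interferon beta, had 37.0, 0.6 and 0 normalized counts in RasV12 GFP+ and no reads in control GFP+ libraries, and 103, 0 and 262 in RasV12 CD11b+ against 0.8, 123 and 0 in control CD11b+ libraries. Ifng and Ifne had no reads in any library, which limits each to below the level of 3 reads per library.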

How the data were processed

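RNA of sorted cells was extracted with Sepazol, amplified with a SMARTer Universal Low Input kit, made into Nextera XT libraries and sequenced on a HiSeq3000, per the labels' protocols. Per the submitters' processing notes, the reads were handled with DESeq2 1.20.0, Subread 1.6.2, featureCounts, HISAT2 2.1.0 and bcl2fastq 2.17.1.14 on genome build GRCm38.p6, with no statement of the step each was used for. The deposited values are normalized counts (a signal on a count scale that the authors divided by 1 factor per library and wrote to 1 decimal) and FPKM of the same 54547 genes. FPKM served to compare levels between genes and as an alternative. Divided by the value of 1 read, at least 99.97% of a library's values came out whole (tolerance 0.05 reads), which gave back the reads.

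The 29835 genes that reached a normalized count of 10 in 3 or more libraries entered limma-trend (R 4.3.3, limma 3.58.1), fitted to log2(normalized count + 1) of all 12 libraries, with 1 mean per group and Benjamini-Hochberg adjustment over all tested genes at 0.05. All adjusted p are from it unless edgeR or DESeq2 is named, and fold changes on this scale understate changes of low genes. Alternatives on recovered reads were edgeR 4.0.16 and DESeq2 1.42.0. Other alternatives changed the scaling, pseudocount, filter, libraries or a replicate block, used FPKM (pseudocount 0.1), or subtracted the level of 1975 olfactory and vomeronasal receptor genes. Genes without reads in a group were bounded with reads pooled over each group and 3 reads over the group as the floor. These bounds and the counting intervals (95%) cover counting error only, not the spread between libraries. Scripts were tested on simulated data. Gene positions are from GENCODE on GRCm38, where 98.5% of identifiers matched.

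The 40 genes and the other lists were chosen with earlier results of these data known. Members that passed in any comparison are given for every library, the others by group or in part, and of the other pathway genes up to 4 per comparison with the smallest adjusted p.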

Additional observations from a re-analysis of the deposited data

Results flagged for a closer look

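For 2 of the 40 genes the change with RasV12 differed between the cell types by a test of the difference itself. For Ifitm3 the RasV12 effect was 0.15 ± 0.43 in CD11b+ cells and 3.21 ± 0.43 in GFP+ cells on the log2 scale, a difference of -3.05 ± 0.61 (limma-trend, adjusted p = 0.0133). For Ifi35 it was -2.46 ± 0.93 in CD11b+ cells and 2.56 ± 0.93 in GFP+ cells, a difference of -5.03 ± 1.32 (limma-trend, adjusted p = 0.0476), which 15 of 24 alternatives ended. RasV12 CD11b+ 1 and 2 had the fewest reads and all 3 RasV12 CD11b+ libraries a high receptor-gene level, and the part of either in these differences was not tested.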

How the results depend on the processing

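Of 34 tests of single members that passed, 9 passed in every alternative and none changed direction. For RasV12 against control in GFP+ cells, 3 of the 40 genes were called, against 1 with quantile normalization, 1 with the receptor-gene level subtracted and 10 by DESeq2, and 1 to 5 without single libraries. Of all tested genes 6.79% were called, against 3.5%, 4.88% and 16.4% in these settings and 3.49 to 5.91% without single libraries. In CD11b+ cells none was called, against 1 with upper-quartile scaling, 2 with quantile normalization, 2 with the receptor-gene level subtracted, and 0 to 2 without single libraries. The shares of all tested genes were 5.36%, against 6.29%, 8.11% and 13.7% in these settings and 1.25 to 17.6% without single libraries. Between the cell types of tumors, 13 were called, against 5 by edgeR, 7 with that level subtracted and 8 with RasV12 CD11b+ 1 and 2 and control CD11b+ 2 left out together, where the lone RasV12 CD11b+ library is assumed to vary like the other groups. Between the control cell types 16 were called, against 8 with quantile normalization, 7 by edgeR and 5 with that level subtracted. Of all tested genes 40.1% were called in tumors, against 15.7% by edgeR and 39.7% with that level subtracted. In controls 26.2% were, against 13.8% with quantile normalization, 15.5% by edgeR and 16.3% with that level subtracted. The difference of the RasV12 effects was called for 2 genes, against 1 with a pseudocount of 0.5, 1 with no filter, 6 by DESeq2, and 1 to 4 without single libraries. For it the shares of all tested genes were 4.4%, against 4.16%, 2.14% and 10.5% in these settings and 1.94 to 7.46% without single libraries. The cause was not tested. Quantile normalization moved the all-gene median of RasV12 against control to -0.12 in GFP+ cells and 0.13 in CD11b+ cells, and that of CD11b+ against GFP+ cells to 0.30 in tumors and -0.02 in controls.

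The libraries share only replicate numbers, and same-numbered libraries did not deviate together (r = -0.029 to 0.09 over tested genes). With the replicate number as a block, 3, 0, 16, 19 and 2 genes were called, in the order of comparisons above.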
